A study of Arabidopsis thaliana with 16 samples.

Results

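The genes described here are 44 members of the SAUR family (small auxin-up RNA) of Arabidopsis thaliana, taken as a list of locus identifiers. All 44 were present among the 33602 genes of the deposited table, and 38 of them reached at least 10 normalized read counts in at least 4 of the 16 libraries, the level needed for testing. All on the list belong to the family, but the list was chosen with earlier results of these data known. It is not the whole family, since RefSeq names 35 further SAUR genes in the same table.

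SAUR genes encode small plant proteins and are the largest family of early auxin response genes. When auxin is perceived, Aux/IAA repressors are degraded and auxin response factors (ARFs) switch SAUR genes on. SAUR proteins inhibit PP2C.D phosphatases, which otherwise remove an activating phosphate from plasma membrane proton pumps, so that SAUR proteins keep the pumps active, the cell wall is acidified and the cell expands. Their transcripts are short-lived, and their levels also follow brassinosteroid, light and temperature signals, in part through the PIF transcription factors.

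Polyadenylated RNA was sequenced from whole seedlings of wild type and of a homozygous line with the transgene ATML1pro:GR-SPCH1-4A-YFP, called the inducible line here, at 7 days post germination. In that transgene the promoter of ATML1, active in the epidermis, drives the stomatal lineage factor SPEECHLESS (SPCH) with altered phosphorylation sites, joined to the glucocorticoid receptor (GR) and a yellow fluorescent protein, and dexamethasone lets the fusion enter the nucleus. The 4 groups, with 4 libraries each, were the inducible line at 0 h, the inducible line 12 h after 100 μM dexamethasone, wild type at 0 h and wild type 12 h after the same dose. The 0 h groups were untreated, so that within a line dexamethasone and 12 h of elapsed time cannot be told apart, and wild type received the same treatment. Seeds had been cold treated for 2 days and grown in liquid medium with 1% sucrose, shaken at 90 rpm. Separate cultures are not stated for the 4 replicates, so the p-values reflect only how far these libraries differ, and that spread could be technical. Replicates 1 and 2 of every group were sequenced on 1 lane and replicates 3 and 4 on a second.

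The libraries held 16251477 to 22944391 reads assigned to genes. SPCH transcript, to which transgene reads can also count, averaged 139.6 ± 16.2 (SD, n = 4) normalized counts at 0 h and 199.8 ± 31.6 at 12 h in the inducible line, against 63.4 ± 6.26 and 65.7 ± 5.73 in wild type. All 5 leaf, all 5 root and all 4 epidermis marker genes passed the filter on low values. In whole seedlings, fewer cells of a type and less RNA per cell cannot be told apart.

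Most of the members lie in tandem arrays. In the RefSeq annotation of TAIR10.1, 32 of the 44 fall into 7 clusters of neighbours no more than 25 kb apart, and 12 stand alone. The chromosome 1 array spans 10301377 to 10323239, or 21.9 kb, and holds SAUR61, SAUR62, SAUR63, SAUR64, SAUR65, SAUR66 and AT1G29510. The last of these carries the name SAUR68 and the synonym SAUR67 in RefSeq and is called by its locus here, because its neighbour AT1G29490 bears the name SAUR68 too. The chromosome 5 array (5962773 to 5984308) holds SAUR19 to SAUR24, and the chromosome 3 array (976715 to 983768) holds SAUR26 to SAUR29. The largest chromosome 4 array (16577180 to 16599568) holds SAUR49, SAUR50 and SAUR1 to SAUR5, while smaller groups hold SAUR14 to SAUR16 on chromosome 4, SAUR6, SAUR7 and SAUR12 on chromosome 2, and SAUR51 and SAUR52 on chromosome 1.

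The coding sequences are short, from 261 to 570 bases, and 42 of the 44 have no intron in the coding part. Copies within the chromosome 1, 3 and 5 arrays are alike. SAUR19 and SAUR24 share 95.2% of their aligned coding positions, SAUR63 and AT1G29510 share 89.5%, SAUR62 and SAUR63 share 89.0%, and SAUR64 and SAUR66 share 85.4%, whereas SAUR61 and SAUR65 share 74.4%. In the chromosome 3 array the nearest pairs share 83.9% and 86.3%. The large chromosome 4 array is more varied: SAUR1, SAUR2, SAUR4 and SAUR5 share 61.1% to 66.0% with their nearest member, and the nearest members of SAUR3, SAUR4, SAUR49 and SAUR50 lie outside it. How the counting treated reads with several alignments is not given in the sources used here, so reads of near-identical neighbours may have been split or dropped, and a change in 1 of them may belong to another copy. In addition, SAUR61, SAUR63, SAUR64 and SAUR7 overlap an annotated gene on the opposite strand and SAUR6 and SAUR7 overlap each other. Since the strand setting is not given either, reads of those partners cannot be told apart.

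The promoters of 4 members of the chromosome 1 array are printed because these genes had the smallest adjusted p of the falls described below. Each line gives the 250 bases before the annotated start, 5′ to 3′ on the gene's own strand, from the TAIR10.1 RefSeq assembly. Capitals mark CATGTG or its reverse complement CACATG, a site type that PIF factors can bind, and TGTCTC or its reverse complement GAGACA, the classical auxin response element. The windows are chr1:10303419-10303668 (minus strand) for SAUR62, chr1:10306596-10306845 (minus strand) for SAUR64, chr1:10308247-10308496 (minus strand) for SAUR65 and chr1:10320761-10321010 (plus strand) for SAUR66.
SAUR62: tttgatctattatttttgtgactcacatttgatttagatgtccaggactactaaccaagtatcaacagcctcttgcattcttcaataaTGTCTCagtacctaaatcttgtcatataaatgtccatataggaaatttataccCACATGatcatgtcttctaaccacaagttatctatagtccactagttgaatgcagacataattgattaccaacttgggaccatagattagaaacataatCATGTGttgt
SAUR64: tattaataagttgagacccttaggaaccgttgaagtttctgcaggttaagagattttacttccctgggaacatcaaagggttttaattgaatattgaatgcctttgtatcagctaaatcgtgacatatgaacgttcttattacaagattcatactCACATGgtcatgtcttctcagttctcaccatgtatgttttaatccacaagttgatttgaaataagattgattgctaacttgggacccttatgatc
SAUR65: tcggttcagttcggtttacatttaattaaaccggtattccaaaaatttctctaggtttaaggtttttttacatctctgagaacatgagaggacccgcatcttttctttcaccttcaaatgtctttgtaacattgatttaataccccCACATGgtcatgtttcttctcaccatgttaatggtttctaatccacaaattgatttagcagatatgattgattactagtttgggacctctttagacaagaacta
SAUR66: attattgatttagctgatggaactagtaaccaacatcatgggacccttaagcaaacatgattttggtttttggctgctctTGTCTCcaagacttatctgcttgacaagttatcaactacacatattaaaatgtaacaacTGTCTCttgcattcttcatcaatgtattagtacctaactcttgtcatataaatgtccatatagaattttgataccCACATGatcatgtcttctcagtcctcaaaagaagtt
Counted to its first base, CATGTG or CACATG begins 109 and 10 bases before the start in SAUR62, 95 bases before it in SAUR64, 104 in SAUR65 and 36 in SAUR66.

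Over both strands, CATGTG or CACATG was present in the windows of 24 of the 44 members (54.5%), against 3043 of 27443 protein-coding genes (11.1%) and 8 of the 35 other SAUR-family genes (22.9%). All 7 members of the chromosome 1 array and all 4 of the chromosome 3 array held it. The palindrome CACGTG, the G-box, was in 0 of 44 windows, against 6.5% of all protein-coding genes. TGTCTC or GAGACA was in 7 of 44 (15.9%), against 10.9%, and TGTCGG or CCGACA in 2 of 44 (4.5%), against 4.2%. Members of an array share sequence and do not count as independent examples, and a match or its absence in this window says only which letters are there.

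The members differ widely in level. Per kb of exon and averaged over the 16 libraries, SAUR1 (948 normalized counts per kb), SAUR5 (711), SAUR14 (691), SAUR55 (472), SAUR6 (433) and SAUR16 (420.0) were the 6 most abundant, and the lowest of the 38 tested was SAUR70 (8.54). SAUR14 and SAUR16, together with SAUR50, are known from cotyledons, where SAUR16 and SAUR50 take part in opening. The array members SAUR62, SAUR63, SAUR64, SAUR66 and AT1G29510 lay close together, between 71.7 and 79.9 counts per kb, and SAUR19 to SAUR24, a subfamily known to promote cell expansion, lay between 9.35 and 22.3. The 6 members that were not tested, SAUR2, SAUR25, SAUR33, SAUR38, SAUR54 and SAUR69, never exceeded 12.6 normalized counts in any library. Of the 38 tested, 22 were at 10 or more in every library, while 7 passed with only 4 to 8 libraries at that level. SAUR10, SAUR19, SAUR20, SAUR21, SAUR22, SAUR24, SAUR28 and SAUR61 had no inducible-line 12 h library at 10 and passed through the other groups. The filter thus favours lower values in that group for these genes. Medians and counts below 0 for that group include them.

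**Figure D1:**
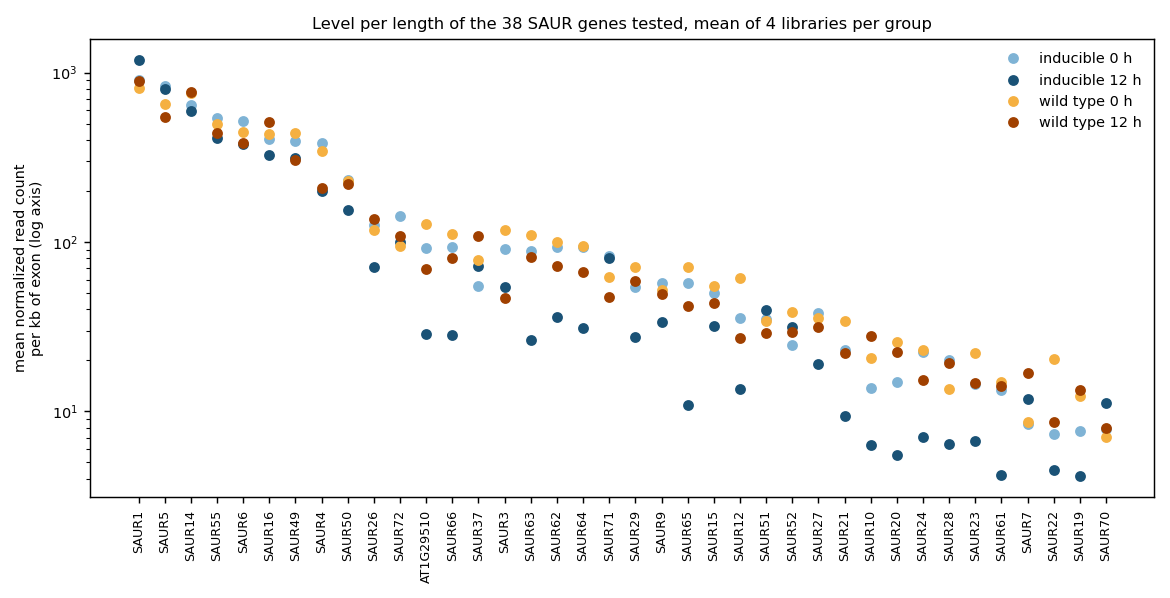
Mean normalized read count per kb of exon, on a log axis, for the 38 SAUR genes tested, ordered by their mean over all 16 libraries; each point is the mean of 4 libraries of 1 group. Means over all 16 libraries run from SAUR1 at 948 to SAUR70 at 8.54. The plotted points run from 1184 (SAUR1) to 4.15 (SAUR19), both of the inducible line at 12 h. That group (dark blue) is the lowest point for the 7 members of the chromosome 1 array.

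Over 12 h of dexamethasone, transcripts of 7 SAUR genes fell in the inducible line, and 6 of these lie in the chromosome 1 array. Of the 38 members tested, 7 fell, 0 rose and 31 did not pass an adjusted p of 0.05 (limma, Benjamini-Hochberg over all 20756 genes tested), where 3.68% of all genes fell, 1.44% rose and 5.12% changed in either direction. These 6 were SAUR62, SAUR63, SAUR64, SAUR65, SAUR66 and AT1G29510, a subfamily known to promote elongation of the hypocotyl and of stamen filaments. The other was SAUR4 of chromosome 4. The median log2 difference of the 38 was -0.70, with 32 below 0, beside a median of 0.01 over all genes tested. Over the 20 tested SAUR-family genes outside the list the median was -0.10.

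SAUR66 (AT1G29500; chromosome 1, 10321011 to 10321978) had 90.1, 88.6, 74.7 and 108 normalized counts in the 4 libraries of the inducible line at 0 h and 31.0, 25.5, 26.8 and 26.8 at 12 h. Every 12 h library was below every 0 h library, and the 12 h values were tightly grouped. SAUR66 fell 3.19-fold, and its log2 difference was -1.67 (SE 0.22, adjusted p = 0.000109). SAUR64 (AT1G29450), whose values were 75.5, 87.6, 75.8 and 97.4 at 0 h and 32, 23.5, 23.0 and 33.0 at 12 h, was likewise lower in every treated library. SAUR64 fell by 1.57 on the log2 scale (SE 0.21, adjusted p = 0.000131).

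SAUR62 (AT1G29430) went from 81.8, 64.8, 68.3 and 99.2 to 31.0, 26.4, 27.8 and 35.7, with no overlap, a log2 difference of -1.34 (SE 0.22, adjusted p = 0.000936). SAUR65 (AT1G29460) went from 52.4, 81.9, 24.6 and 47.3 to 11.6, 9.80, 11.5 and 6.25. The 0 h libraries of SAUR65 were spread over a wide range, yet all stood above the 12 h libraries. It fell 4.59-fold, the steepest fall among the tested members, and its log2 difference was -2.20 (SE 0.39, adjusted p = 0.00186).

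AT1G29510 had 38.8, 60.0, 89.7 and 115 at 0 h and 20.4, 14.7, 23.0 and 35.7 at 12 h, where the highest treated library lay just under the lowest untreated one. Its log2 difference was -1.61 (SE 0.34, adjusted p = 0.0084). SAUR63 (AT1G29440), which is known to promote hypocotyl elongation, went from 33.5, 41, 53.4 and 84.6 to 3.88, 13.7, 18.2 and 27.7, again without overlap, and its values were widely spread in both groups. Its log2 difference was -1.85 (SE 0.44, adjusted p = 0.018), and without replicate 4 of the inducible line at 0 h the adjusted p was 0.0741. SAUR61, the seventh member of the array, was low throughout, at 9.71 ± 5.30 and 3.04 ± 1.98 (SD, n = 4). SAUR61 did not pass, with -1.43 (SE 0.45, adjusted p = 0.0847).

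Summed over the 7 members, the array held 382 to 569 normalized counts per library at 0 h and 118 to 171 at 12 h in the inducible line. Of the other genes in the interval, AT1G29465 had a log2 difference of -0.17 (adjusted p = 0.864) and AT1G29470 of 0.12 (adjusted p = 0.809). AT1G29490, the further SAUR gene of the interval, fell by 2.61 on the log2 scale (SE 0.54, adjusted p = 0.00689), from a mean of 12.2 to 1.17 normalized counts. In wild type the mean of AT1G29490 went from 12.5 to 4.50 (log2 difference -1.38, SE 0.54, adjusted p = 0.157). At such low levels the fitted value depends on the pseudocount. AT1G29490 passed the filter with 5 libraries, all of them at 0 h, since no 12 h library of either line exceeded 7.03 normalized counts. The filter thus favours a fall over time for this gene, and its adjusted p should be read with that limit. Within lane 1 alone the log2 differences in the inducible line of the 6 array members that fell ranged from -1.31 to -2.51, and within lane 2 alone from -1.36 to -1.88. At 2 libraries a group, 3 members of the whole list passed in lane 1 (SAUR64, SAUR65 and SAUR66), where 367 of all genes did. In lane 2, 7 of the whole list passed, where 748 of all genes did. These were SAUR62, SAUR64, SAUR65, SAUR66 and AT1G29510 of the array, and SAUR4 and SAUR12 outside it. SAUR63 did not pass in either lane alone.

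**Figure D2:**
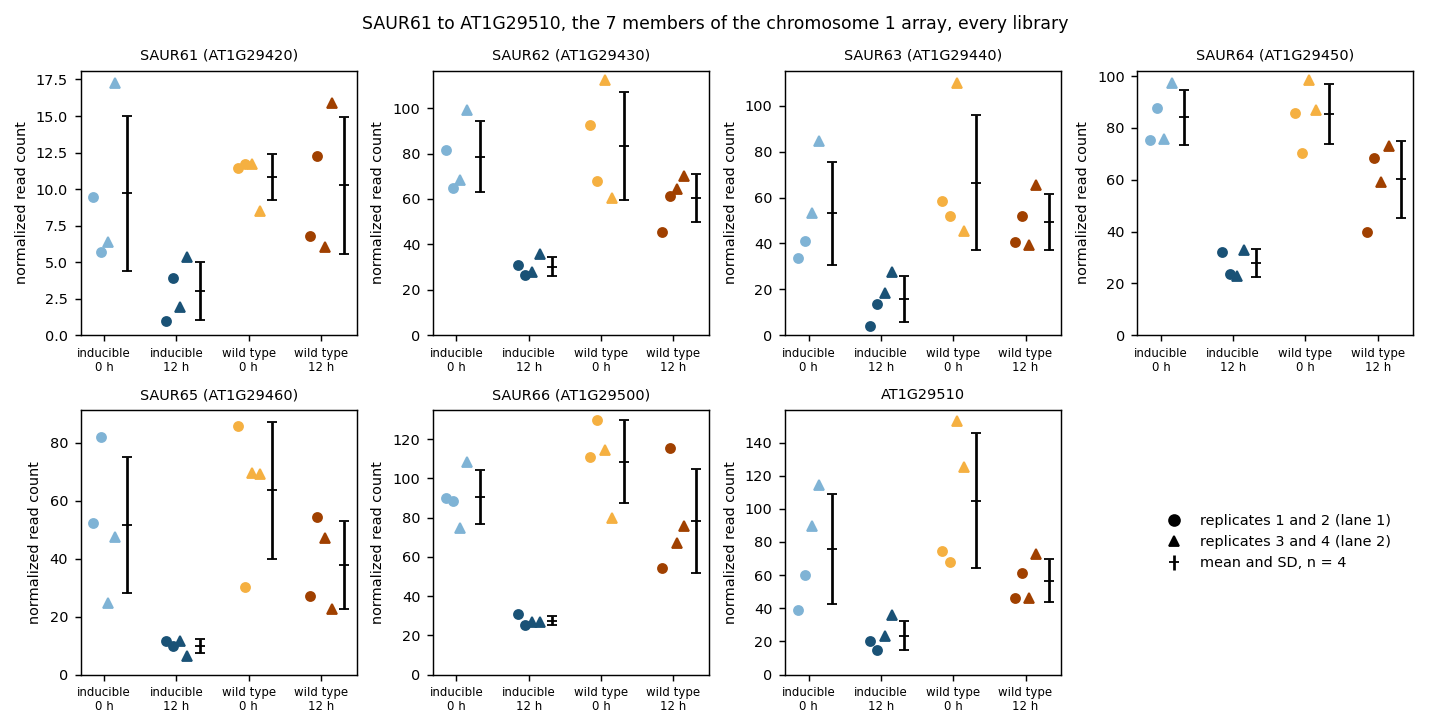
Normalized read count of each of the 7 members of the chromosome 1 array in every library of the 4 groups; circles are replicates 1 and 2, triangles replicates 3 and 4, and bars the mean and SD of 4 libraries. In the inducible line every 12 h library lies below every 0 h library in all 7 panels, and SAUR66 goes from 74.7 to 108 down to 25.5 to 31.0.

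Outside the array the falls were smaller or did not pass. SAUR4 (AT4G34800) had 242, 191, 279 and 404 at 0 h and 124, 136, 167 and 159.9 at 12 h. These groups did not overlap, and the 0 h libraries were widely spread. SAUR4 fell by 0.88 (SE 0.25, adjusted p = 0.0477), a call at the edge of the threshold: it was lost in 13 of the 16 fits that left out 1 library, with adjusted p up to 0.179 (without replicate 4 of the inducible line at 0 h), and its adjusted p was 0.364 in lane 1 alone and 0.0116 in lane 2 alone.

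In the chromosome 3 array, a subfamily tied to temperature-dependent growth, all 4 log2 differences were below 0 and none passed in limma, while DESeq2 called SAUR26, SAUR27 and SAUR29. Over all genes DESeq2 called 1517 here, against 1063 in limma. The differences ran from -1.68 (SAUR28) to -0.80 (SAUR26). SAUR26 (AT3G03850) had 112, 81.9, 80.0 and 85.5 at 0 h and 57.2, 49.0, 43.1 and 54.5 at 12 h, without overlap, with -0.80 (SE 0.24, adjusted p = 0.0687). SAUR27 had -0.98 (SE 0.28, adjusted p = 0.0518) and SAUR29 -0.95 (SE 0.30, adjusted p = 0.0783). In the chromosome 5 array all 6 differences lay between -1.59 and -0.62 and levels were low. All of the array other than SAUR23 passed the filter only through groups other than the inducible line at 12 h, which favours a fall. None of the 6 passed in limma, while DESeq2 called SAUR24. Its clearest members were SAUR24, with -1.51 (SE 0.46, adjusted p = 0.0687), and SAUR21, with -1.20 (SE 0.36, adjusted p = 0.0694).

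SAUR12 (AT2G21220), the neighbour of SAUR6 and SAUR7, went from 16.8, 17.1, 42.7 and 41.9 to 7.75, 11.8, 7.66 and 17.9. Its groups overlapped, since lane 1 replicates were low at 0 h and 1 lane 2 replicate was high at 12 h, and its log2 difference was -1.26 (SE 0.41, adjusted p = 0.0947). SAUR72 (AT3G12830) went from 151, 142, 122 and 146 to 94.0, 98.0, 114 and 84.0, without overlap, with -0.52 (SE 0.19, adjusted p = 0.147). The abundant SAUR1 and SAUR5 had log2 differences of 0.38 (SE 0.25, adjusted p = 0.543) and -0.05 (SE 0.24, adjusted p = 0.978).

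Counted by libraries, 15 of the 38 members had every 12 h library below every 0 h library and 0 had the opposite, where 7.32% of all genes tested were lower and 5.72% higher without overlap. With the replicate number as a block, 15 members fell in place of 7, in a fit where 5.82% of all genes fell and 8.88% changed. Those added were SAUR6 (adjusted p = 0.0188), SAUR12 (0.0105), SAUR21 (0.0338), SAUR24 (0.0151), SAUR26 (0.0345), SAUR27 (0.0357), SAUR29 (0.0499) and SAUR61 (0.0355). SAUR21, SAUR24 and SAUR61 had no inducible-line 12 h library at 10, and SAUR21 and SAUR61 were also among the 15 without overlap. Over all 44 members the summed level was 4786 to 6323 normalized counts at 0 h and 4000.1 to 5117 at 12 h, so that abundant members that did not pass, such as SAUR1, weighed heavily in the total.

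Markers moved beside these falls in part. Of 5 leaf markers, LHCB2.1, a chlorophyll-binding protein of the light-harvesting complex, fell in the inducible line over time (log2 -0.71, adjusted p = 0.025). The other 4 leaf, all 5 root and all 4 epidermis markers did not pass there, and the summed root markers were 979 to 1377 at 0 h and 573 to 1035 at 12 h. Of 6 clock genes, GI rose (0.48, adjusted p = 0.00841) and LHY fell (-0.48, adjusted p = 0.0404). Their part in the SAUR result was not tested.

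Wild type received the same dexamethasone. Of the 38 members tested 0 passed the adjusted threshold in limma, where 4.72% of all genes tested changed, 2.45% lower and 2.27% higher. At an unadjusted p under 0.05 there were 7 (18.4%), near the 20.1% of all genes, and edgeR and DESeq2 on the recovered reads both called 0. The median log2 difference was -0.24, with 27 of 38 below 0, beside -0.004 over all genes.

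In wild type all 7 members of the chromosome 1 array had log2 differences below 0, from -0.82 to -0.16, and 0 passed. At an unadjusted p under 0.05 there were 3 of the 7 (42.9%), against 20.1% of all genes. SAUR66 went from 111, 129.7, 114 and 79.6 to 54.4, 116, 67.3 and 75.7, groups that overlapped, and its difference was -0.50 (SE 0.22, adjusted p = 0.2). SAUR64 went from 85.8, 70.3, 98.3 and 87.0 to 39.7, 68.5, 59.3 and 72.9 and had -0.53 (SE 0.21, adjusted p = 0.157). SAUR64 came close to separating, since only its highest 12 h library exceeded the lowest 0 h library. SAUR62 went from 92.6, 67.8, 112 and 60.5 to 45.4, 61.4, 64.3 and 70.1, with -0.43 (SE 0.22, adjusted p = 0.278), and SAUR65 from 85.8, 30.1, 69.5 and 69.0 to 27.2, 54.2, 47.2 and 22.4, with -0.73 (SE 0.39, adjusted p = 0.308). Both of these overlapped between times. SAUR63 went from 58.3, 51.9, 110.0 and 45.6 to 40.8, 52.1, 39.2 and 65.4, with -0.36 (SE 0.44, adjusted p = 0.707), and AT1G29510 from 74.3, 67.8, 153 and 125 to 46.5, 61.4, 46.2 and 72.9, with -0.82 (SE 0.34, adjusted p = 0.184). The summed array was 429 to 669 counts at 0 h and 261 to 425 at 12 h, ranges that came close to each other without overlapping.

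SAUR4 and SAUR49, the 2 members with the smallest adjusted p in wild type, lie in the large chromosome 4 array, and SAUR3 of that array and SAUR64 of chromosome 1 followed with equal adjusted p. SAUR4 went from 287, 210.1, 269 and 235 to 81.7, 159.5, 178 and 189, the 1 member of 38 whose wild-type libraries did not overlap (4.76% of all genes tested were lower and 4.46% higher in this way). Its log2 difference was -0.78 (SE 0.25, adjusted p = 0.0803), close to that in the inducible line. SAUR49, known to promote leaf senescence, went from 555, 780.1, 380.4 and 520.1 to 366, 496, 339 and 362, with -0.48 (SE 0.17, adjusted p = 0.118). In the inducible line SAUR49 went from 550.2, 472, 465 and 524 to 366, 431, 374 and 428, without overlap, with -0.33 (SE 0.17, adjusted p = 0.388).

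SAUR3 (AT4G34790) in wild type went from 35.4, 81.2, 144 and 110.4 to 9.07, 33.8, 69.3 and 36.5, with -1.43 (SE 0.56, adjusted p = 0.157). In the inducible line it went from 41.9, 44.8, 107 and 93.7 to 38.8, 22.5, 78.5 and 33.0, with -0.75 (SE 0.56, adjusted p = 0.623). Both lane 2 libraries of SAUR3 were above both lane 1 libraries in every group other than the inducible line at 12 h. SAUR12 went from 24.0, 34.3, 74.8 and 71.1 to 15.9, 21.5, 28.1 and 24.3, with -1.03 (SE 0.41, adjusted p = 0.165).

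With the replicate block 5 members fell in wild type in place of 0, in a fit where 7.07% of all genes fell and 13.3% changed: SAUR3 (adjusted p = 0.00746), SAUR4 (0.0193), SAUR49 (0.0262), SAUR12 (0.0296) and AT1G29510 (0.0313). Without replicate 3 of wild type at 0 h, SAUR49 alone passed the fit that has no block. Of the clock genes, GI (0.56, adjusted p = 0.00479) and PRR7 (0.68, adjusted p = 0.0109) rose in wild type.

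**Figure D3:**
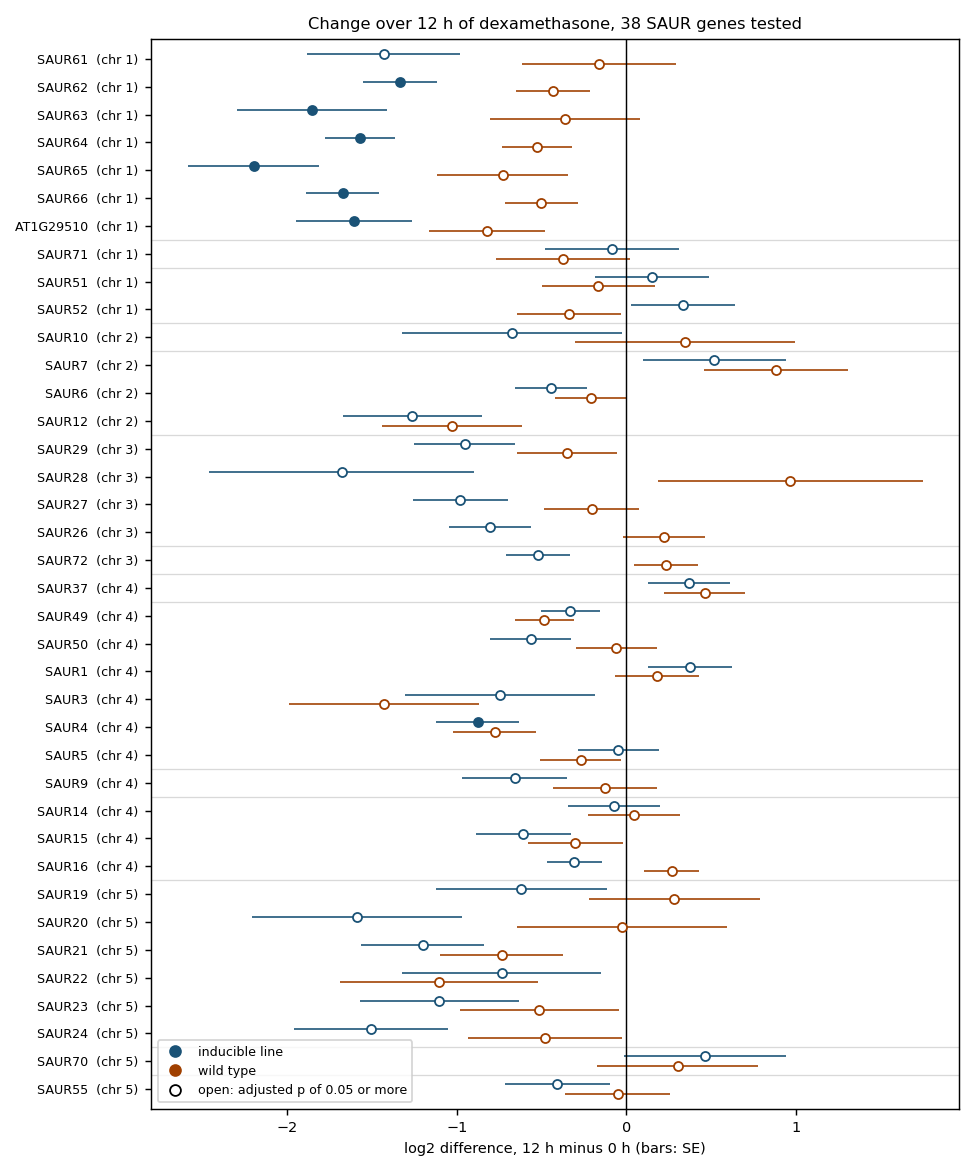
Log2 difference between 12 h and 0 h for the inducible line (blue) and wild type (brown), over the 38 SAUR genes tested, in chromosome order; bars are SE and filled points passed an adjusted p of 0.05. The 7 filled points, 6 in the chromosome 1 array and SAUR4, are all of the inducible line, and the array spans -2.20 to -1.34 there against -0.82 to -0.16 in wild type.

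At 12 h the inducible line had less transcript of 7 SAUR genes than wild type, and 6 of them lie in the chromosome 1 array. Of the 38 members tested, 7 were lower, 0 higher and 31 did not pass, where 2.2% of all genes were lower, 1.2% higher and 3.4% differed either way. The 7 were SAUR16 and the 6 array members that fell over time. The median log2 difference was -0.67, with 29 of 38 below 0, beside 0.01 over all genes. This comparison shares the 12 h libraries of the inducible line with the change over time, so the calls of one are not separate evidence for the other.

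At 12 h SAUR66 averaged 27.5 ± 2.41 (SD, n = 4) against 78.2 ± 26.4 in wild type, 2.68-fold lower, and its difference on the log2 scale was -1.42 (SE 0.22, adjusted p = 0.000883). SAUR64 differed by -1.06 (SE 0.21, adjusted p = 0.00645). These 2 calls were kept in all 16 fits that left out 1 library. SAUR65 differed by -1.79 (SE 0.39, adjusted p = 0.0138) and SAUR62 by -0.96 (SE 0.22, adjusted p = 0.0185). SAUR63 differed by -1.81 (SE 0.44, adjusted p = 0.0302) and AT1G29510 by -1.28 (SE 0.34, adjusted p = 0.0486). edgeR did not call SAUR63 (adjusted p = 0.05 after rounding) or AT1G29510 (0.0648) at 12 h and called SAUR26, while DESeq2 called all 3. Over all genes edgeR called 685 at 12 h and DESeq2 1120. AT1G29510 also lost its call with a pseudocount of 5 and with no filter. All 6 had every library of the inducible line below every wild-type library.

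SAUR16 (AT4G38860), which takes part in cotyledon opening, had 311, 334, 380.2 and 339 in the inducible line and 484, 636, 527 and 506 in wild type at 12 h. The groups were well apart, and the log2 difference of SAUR16 was -0.65 (SE 0.16, adjusted p = 0.0321). At 0 h the same gene stood at 424 ± 57.8 and 457 ± 131. SAUR26 came next, with 73.7, 135, 105 and 74.8 in wild type at 12 h, above every library of the inducible line, and a log2 difference of -0.88 (SE 0.24, adjusted p = 0.0548). SAUR4, by contrast, had nearly the same level in both lines at 12 h (a log2 difference of 0.01, adjusted p = 1, which was below 0 in edgeR and DESeq2).

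In all, 12 of the 38 members had every 12 h library of the inducible line below every wild-type library, and 0 were higher in this way, where 5.35% and 4.29% of all genes tested were. Among the 12, SAUR10, SAUR19, SAUR21 and SAUR61 had no inducible-line 12 h library at 10. The other 5 calls depended on which libraries were in the fit: 2 members, SAUR64 and SAUR66, passed without wild-type 12 h replicate 2, and the same 2 without replicate 3. At 12 h there were 3 without wild-type replicate 4 and 3 without replicate 2 of the inducible line, both times SAUR64, SAUR65 and SAUR66, and 4 without its replicate 1. Over all genes the 12 h fits that left out 1 library called 428 to 800, against 706 with every library. Within lanes the log2 differences of the 6 array members ranged from -0.86 to -2.48 in lane 1 and from -0.99 to -1.82 in lane 2. Of the whole list 1 member passed in lane 1 alone and 2 in lane 2 alone, where 175 and 437 of all genes did.

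With the replicate block 12 members were lower and SAUR71 higher (adjusted p = 0.0381), in a fit where 3.9% of all genes were lower and 6.42% differed. The lower ones added were SAUR10 (0.0373), SAUR20 (0.0395), SAUR26 (0.0266), SAUR29 (0.0466) and SAUR61 (0.0321). Of these, SAUR10, SAUR20 and SAUR61 passed the filter only through groups other than the inducible line at 12 h. At 12 h LHCB2.1 (log2 -0.76, adjusted p = 0.0238), the root endodermis gene CASP2 (-0.94, adjusted p = 0.0259) and ATML1 itself (-0.57, adjusted p = 0.0293) were lower in the inducible line too. These were 1 of 5 leaf, 1 of 5 root and 1 of 4 epidermis markers, and no other marker passed. All 5 leaf and all 5 root differences were below 0. Of the 4 epidermis markers 2 were above 0, PDF1 (0.46, adjusted p = 0.263) and PDF2 (0.12, adjusted p = 0.915). The summed root markers were 573 to 1035 in the inducible line and 919.7 to 1642 in wild type. The part of the markers in the SAUR differences was not tested.

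Before treatment no SAUR gene was called different between the lines. Of the 38 members 0 passed in limma, where 1.99% of all genes differed, 0.573% lower and 1.42% higher. At an unadjusted p under 0.05 there were 2 (5.3%), against 18.8% of all genes, while edgeR called 0 and DESeq2 called 1 (411 and 1360 over all genes). The median log2 difference was -0.08, beside 0.002 over all genes. The members of the chromosome 1 array lay between -0.50 and -0.02.

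SAUR72 had the smallest adjusted p at 0 h. Its 0 h libraries, given above for the inducible line, all exceeded the wild-type values of 121, 102, 60.9 and 86.0, the 1 member so separated (4.56% of all genes tested were higher and 3.97% lower in this way). Its log2 difference was 0.63 (SE 0.19, adjusted p = 0.0877). SAUR72 was called with the replicate block (adjusted p = 0.0279), where 11.3% of all genes differed and 5.87% were higher, by DESeq2 (adjusted p = 0.04), and without replicate 1 of wild type at 0 h. At 12 h wild type had 126, 110.4, 101 and 87.9, and the difference was -0.12 (SE 0.19, adjusted p = 0.923).

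SAUR22, of the chromosome 5 array, had 3.14, 4.76, 3.20 and 10.9 in the inducible line and 8.0, 21.8, 19.2 and 11.7 in wild type at 0 h. The groups overlapped by 1 library, and the log2 difference was -1.36 (SE 0.59, adjusted p = 0.217). At 12 h it had 2.91, 4.90, 5.75 and 0 and 9.07, 8.18, 3.01 and 5.61. SAUR37 had 51.4, 48.6, 48.0 and 63.7 in the inducible line and 62.9, 109, 57.7 and 69.0 in wild type at 0 h, which overlapped, with -0.45 (SE 0.24, adjusted p = 0.32). It stood at 76.6, 49.0, 78.5 and 73.2 and 72.6, 86.9, 147 and 108 at 12 h, and it was among the 6 members with a positive change over time in the inducible line (0.37, adjusted p = 0.536).

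**Figure D4:**
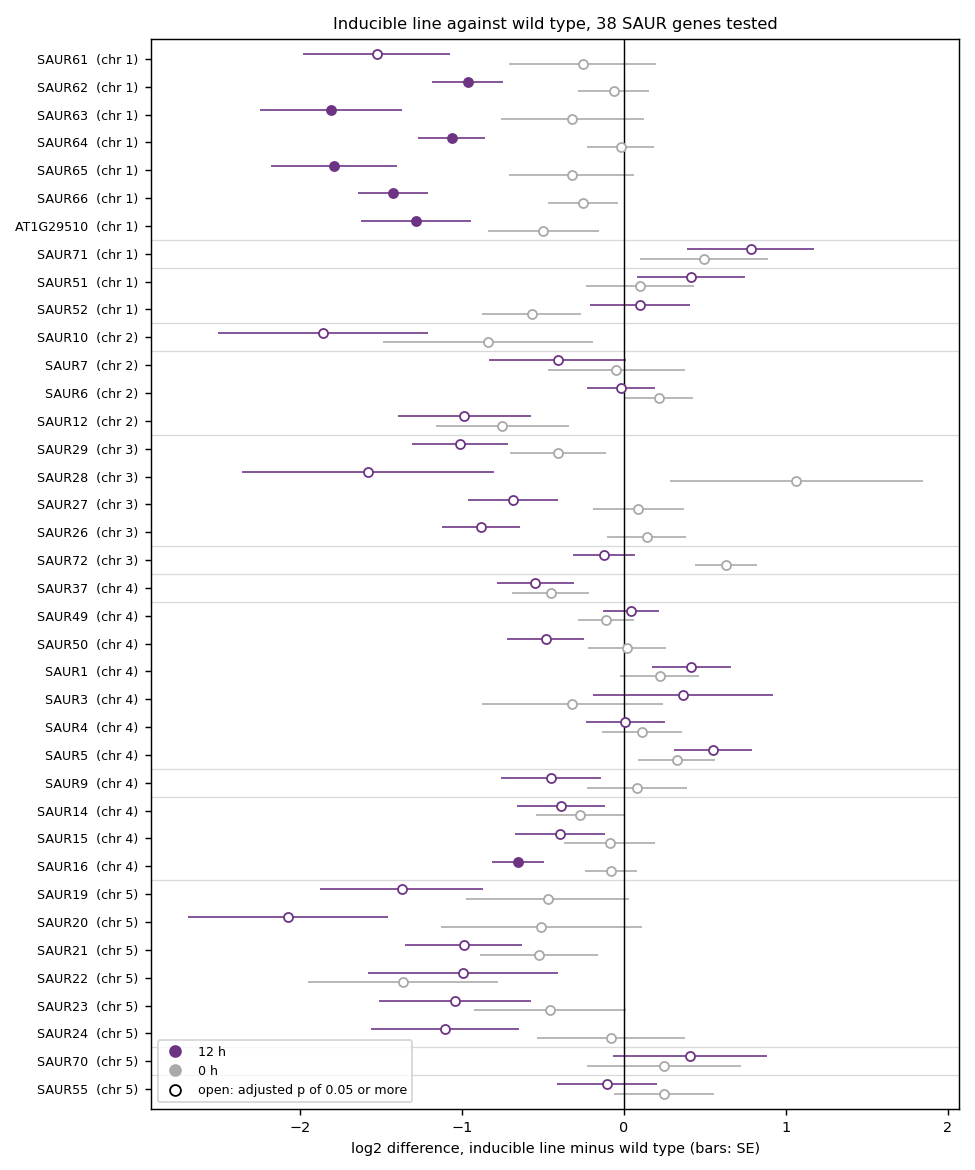
Log2 difference of the inducible line minus wild type at 12 h (purple) and at 0 h (grey) for the 38 SAUR genes tested, in chromosome order; bars are SE and filled points passed an adjusted p of 0.05. The filled points are the 6 array members and SAUR16 at 12 h, with log2 differences from -1.81 to -0.65, and no point at 0 h is filled.

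Whether the change over time differed between the lines was tested by the line-by-time interaction, that is, the change in wild type subtracted from the change in the inducible line. Of the 38 members 0 passed in limma, where 0.511% of all genes did, 0.414% lower and 0.0964% higher. At an unadjusted p under 0.05 there were 9 (23.7%), against 11.6% of all genes, while edgeR called 0 and DESeq2 called 2 (107 and 378 over all genes). The fall of the array in the inducible line is therefore not shown by this test to exceed that in wild type. The median was -0.52, with 29 of 38 below 0, beside -0.002 over all genes.

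SAUR66 came nearest, with -1.17 (SE 0.30, adjusted p = 0.108). It passed with the replicate block (adjusted p = 0.0478), where 2.5% of all genes did and 1.81% were lower, and in DESeq2 (adjusted p = 0.027). SAUR64 had -1.04 (SE 0.29, adjusted p = 0.139) and passed in DESeq2 (adjusted p = 0.0378). SAUR26 followed with -1.02 (SE 0.34, adjusted p = 0.234), SAUR62 with -0.90 (SE 0.31, adjusted p = 0.246) and SAUR72 with -0.75 (SE 0.27, adjusted p = 0.265). SAUR26 and SAUR72 had log2 changes of opposite sign in the lines, at -0.80 and -0.52 in the inducible line and 0.22 and 0.23 in wild type. SAUR4, which was called in the inducible line, had an interaction of -0.10 (SE 0.35, adjusted p = 0.956).

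The pathway around the SAUR genes was read from short lists, gene by gene. Of all genes tested, 5.12% changed in the inducible line over time, with 3.68% lower, and 4.72% changed in wild type. Between the lines 3.4% differed at 12 h and 1.99% at 0 h, and 0.511% passed the interaction. Of 23 Aux/IAA genes tested, which encode the repressors of auxin response, 2 fell in the inducible line over time (IAA16, log2 -0.54, adjusted p = 0.00875; IAA1, -0.76, adjusted p = 0.027) and the median was -0.34. In wild type 1 fell, IAA5 (-2.47, SE 0.35, adjusted p = 0.000651). At 12 h IAA19 (-1.41, SE 0.26, adjusted p = 0.0049) and IAA16 (-0.60, adjusted p = 0.0064) were lower in the inducible line and IAA10 (0.50, adjusted p = 0.0384) was higher. At 0 h IAA8 (-0.60, adjusted p = 0.0324) and IAA5 (-1.41, adjusted p = 0.0472) were lower and IAA10 (0.56, adjusted p = 0.0352) higher.

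Of 7 GH3 genes, whose enzymes conjugate auxin to amino acids, 1 fell in the inducible line. GH3.17 went from 650 ± 89.6 to 296 ± 71.5 (SD, n = 4) there and from 716 ± 87.0 to 773 ± 72.2 in wild type. It fell by 1.15 (SE 0.16, adjusted p = 0.000174), was lower at 12 h (-1.41, adjusted p = 4.89e-05) and passed the interaction (-1.27, SE 0.22, adjusted p = 0.0148), which no SAUR member did. Of 9 auxin synthesis genes YUC5 fell in the inducible line (-0.90, adjusted p = 0.0131) and TAR2 in wild type (-0.65, adjusted p = 0.0162).

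None of the 6 auxin receptor genes, 5 activating ARFs or 5 PIN auxin exporters passed in any of the 5 comparisons, in limma. Of 7 PIF and BZR genes, PIF5 (PIL6 in RefSeq) fell in the inducible line over time (-0.75, SE 0.12, adjusted p = 0.000913), and PIF4 was lower than wild type at 12 h (-0.71, SE 0.18, adjusted p = 0.0424). Downstream of SAUR proteins, 1 of 9 PP2C.D phosphatase genes fell in the inducible line (AT4G33920, -0.47, adjusted p = 0.025). Of 10 proton pump genes HA11 fell in both lines (-0.59, adjusted p = 0.00905, and -0.88, adjusted p = 0.000715), and HA7 was lower at 12 h (-0.83, adjusted p = 0.0421).

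**Figure D5:**
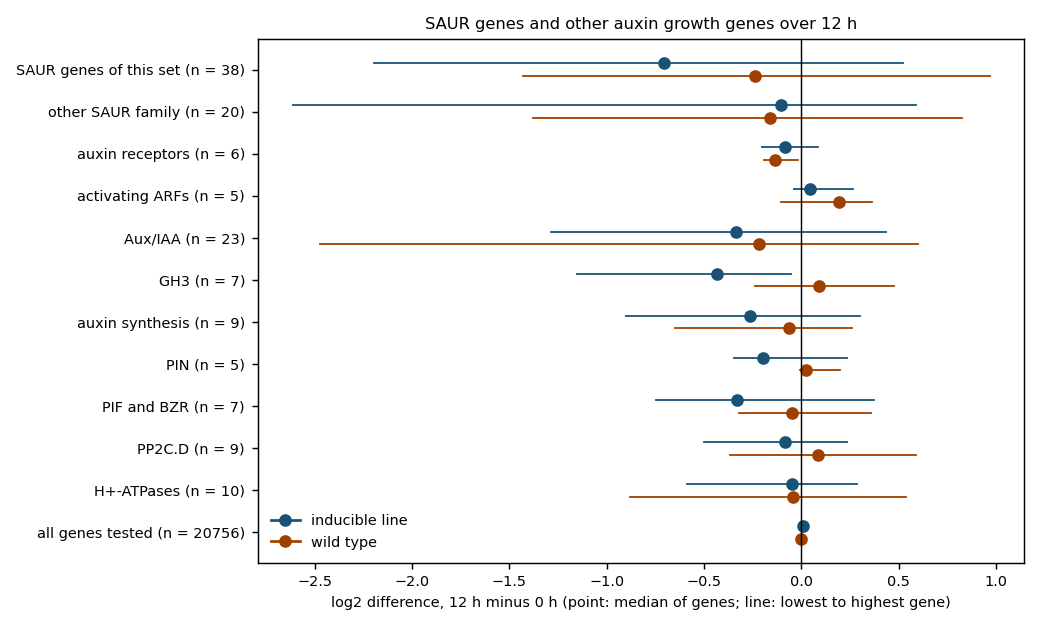
Median log2 difference between 12 h and 0 h (points) and the span from the lowest to the highest gene (lines) for the SAUR genes, the other SAUR genes and lists of auxin pathway genes, in the inducible line (blue) and wild type (brown); n is the number of genes tested. The SAUR median of -0.70 in the inducible line is the lowest of the medians shown, and the median of all genes tested is 0.01. The SAUR list was chosen with earlier results of these data known, so its rank is not independent evidence. Over all 58 tested SAUR-family genes the median there was -0.59.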

How the data were processed

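Polyadenylated RNA of 16 Arabidopsis seedling libraries was analysed from 1 deposited table. Its values are a signal: per the file's values, read counts per gene that the authors divided by 1 size factor per library, since in each library 100% of them were whole multiples of 1 step to within 0.001 read. TAIR10, TopHat, SAMtools, HTSeq and DESeq2 are named per the submitters' processing notes. Versions, annotation release, strand setting and multiple alignments are not given in the sources. Precision follows from 16251477 to 22944391 recovered reads per library.

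The main test was limma 3.58.1 (R 4.3.3; trend, robust) on log2(normalized count + 1), which understates changes of low genes. All 16 libraries entered 1 fit of 4 group means, over the 20756 genes with at least 10 in at least 4 libraries, with Benjamini-Hochberg adjustment and a threshold of 0.05. edgeR 4.0.16 and DESeq2 1.42.0 were run on the recovered reads as alternatives, with other pseudocounts, no filter, TMM factors, a replicate block, a lane term, each lane alone, the compared groups alone and each library left out. The script was tested on simulated data.

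Same-numbered libraries of different groups deviated together in all 24 pairs (correlation 0.521 to 0.718). The replicate block treated the numbers as pairing libraries, but the main fit had no such term and its p-values ignore this shared deviation. Any libraries of 1 lane deviated together as much (0.521 to 0.765 over 48 pairs, against a median of -0.647 across lanes). The same-numbered library was the best match in only 12 of 24 cases, so pairing by number cannot be told apart from the lane.

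Members and gene lists were chosen with earlier results of these data known. Values in every library are given for the 5 members of smallest adjusted p in each comparison (3 at 0 h). SAUR16 was added, with values in every library, after its values were seen. From pathway lists, genes that passed are named, up to 3 a comparison. Names, positions and promoters came from the RefSeq annotation of TAIR10.1, which matched 32835 of 33602 genes. CATGTG was added after the other 3 motifs had been planned, and the promoter window was shortened to the bases before the start. AT5G01830, a protein with the synonym SAUR21 and ARM repeats, was not counted as a SAUR gene.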

Additional observations from a re-analysis of the deposited data

How the results depend on the processing

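The 7 members called in the inducible line over time became 12 in DESeq2, 15 with the replicate block, 16 when lane was a term, 3 in lane 1 alone and 5 to 9 with 1 library left out. The wild-type count of 0 became 5 with the block, 5 with a lane term, 3 in lane 2 alone and 0 to 1 with a library left out. At 12 h the 7 became 13 with the block, 13 with a lane term, 1 in lane 1 alone, 2 in lane 2 alone and 2 to 8 with a library left out. At 0 h the 0 became 1 each in DESeq2, under the block, under a lane term and in lane 2 alone, and 0 to 1 with a library left out. The interaction count of 0 became 2 in DESeq2, 1 with the block and 1 with a lane term, and stayed at 0 with each library left out. The replicate block changed no other call of a member than those given above.

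Over all genes the counts of 1063, 980, 706, 414 and 106 (inducible line, wild type, 12 h, 0 h, interaction) became 1843, 2751, 1332, 2351 and 518 with the block and 1921, 3014, 1414, 2641 and 586 with a lane term. In DESeq2 they became 1517, 1788, 1120, 1360 and 378. They became 367, 187, 175, 1 and 3 in lane 1 alone. In lane 2 alone they became 748, 1140, 437, 1846 and 117. In the compared groups alone, wild type gave 315 and 0 h 138. With 1 library left out they spanned 746 to 1175, 476 to 1889, 428 to 800, 120 to 1803 and 53 to 454.

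Across 33 results for single members and 883 fits under alternatives, 792 kept direction and side of the threshold, 68 lost the call, 14 gained it and 9 changed sign. All 9 were of SAUR4, in comparisons where its main value lay near 0. Its 12 h difference of 0.01 became -0.059 in edgeR, -0.054 in DESeq2 and -0.17 in lane 2 alone. It was -0.054, -0.035 and -0.26 without inducible-line 12 h replicate 3, replicate 4 or wild-type 12 h replicate 1, within a range of -0.26 to 0.137 with 1 library left out. Its interaction of -0.10 became 0.38 in lane 1 alone, 0.094 without inducible-line 0 h replicate 4 and 0.03 without wild-type 12 h replicate 4, within a range of -0.374 to 0.094. The cause was not tested.

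With 50 bases after the start added to the promoter windows, CATGTG or CACATG was in 24 of 44 members (12.9% of all genes) and TGTCTC or GAGACA in 9 (14.2%). Low counts limit what depth can show for SAUR19 to SAUR24 and SAUR61.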

Other observations

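Of the 35 SAUR-family genes outside the list, 20 were tested. In the inducible line over time 2 fell and 1 rose (limma), where 3.68% of all genes fell and 1.44% rose. The median log2 difference of the 20 was -0.10. SAUR78, far more abundant than any member of the list in counts, went from 4843 ± 143 to 2355 ± 312 (SD, n = 4) normalized counts and fell by 1.05 on the log2 scale (SE 0.20, adjusted p = 0.00342). In wild type SAUR78 stood at 4427 ± 1686 and 2740 ± 453. AT1G29490 lies inside the chromosome 1 array and fell as given above, though it was tested only through its 0 h libraries. SAUR36, known to promote leaf senescence, rose in both lines, by 0.59 in the inducible line (adjusted p = 0.0228) and by 0.64 in wild type (adjusted p = 0.0182). None of the 20 passed in the comparison of the lines at 12 h, at 0 h or in the interaction, where 4, 2 and 2 of the 20 had an unadjusted p under 0.05, against 13.8%, 18.8% and 11.6% of all genes.

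Seed storage transcripts varied between libraries: the summed CRA1, CRU3 and CRU2 counts were 2.1 to 138 at 0 h and 3.9 to 37.4 at 12 h in the inducible line, and 1.7 to 9.1 at 0 h and 0.0 to 36.3 at 12 h in wild type.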
